A study of Mus musculus with 4 samples.

Results

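The cytosolic ribosomal protein genes encode the proteins of the ribosome that works in the cytoplasm. They were taken as the protein-coding genes whose symbol is Rpl or Rps followed by a number (with an optional a, x, y or l), Rplp0 to Rplp2, or Rpsa, leaving out pseudogenes and the Rps6k kinases. The rule names 81 genes, and 78 of the 32948 genes in the table of counts matched it: 43 proteins of the large subunit, 30 of the small subunit, 3 stalk proteins and the 2 paralogs Rps27l and Rpl36al. The paralogs Rpl3l, Rpl10l and Rpl39l were not analysed here. All 78 passed the filter on low counts.

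RNA was measured in 4 libraries of cells of the ascending aorta and its arch, and every library came from mice of the genotype Wnt1-Cre;Rosa26-mTmG. In this reporter every cell carries membrane tdTomato until Cre removes it and switches on membrane GFP. Wnt1-Cre acts in the early neural crest, so GFP marks cells descended from Wnt1-Cre expressing cells and tdTomato marks the remaining cells of that suspension. The 4 groups, each of 1 library, were GFP and tdTomato cells of females and GFP and tdTomato cells of males, and values given in fours keep that order. A pair is the GFP and tdTomato library of 1 suspension, and a ratio or fold in females or in males is taken between the libraries of that pair. The female suspension came from 1 sample and the male suspension from 2 samples pooled, so sex and suspension cannot be told apart. Ages are not stated in the labels. The cells are labelled vascular smooth muscle, but the sort was on colour alone. Summed over 8 contractile smooth muscle markers, expression was 16570, 12680, 13980 and 12070 CPM (counts scaled to the size of the library), with none of the 8 at 0.

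The ribosome has a small subunit that reads the message and a large subunit that joins amino acids, and each core protein is present once, so cells make these proteins in matched amounts. The acidic stalk proteins Rplp0, Rplp1 and Rplp2 form an arm of the large subunit that recruits the elongation factors. The messages are abundant in most cells, smooth muscle included, and most begin with a run of pyrimidines at the cap, the terminal oligopyrimidine (TOP) motif, through which mTOR signalling and Larp1 control their translation and stability.

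The start-site windows below are shown because the TOP run is the sequence that these genes are known to share and the rule did not use. RefSeq promoter sequence of build GRCm38.p6 was matched for 58 of the 78 genes. In a window of 15 bases on each side of the annotated start, a run of at least 7 pyrimidines (C or T, on the gene's strand) beginning with C was present in 30 of 58 genes (51.7%), against 4421 of all 27025 genes (16.4%). The windows printed come from genes with a run, 4 with a low and 4 with a higher male GFP over male tdTomato ratio, and need not be the most extreme. They read from 5′ to 3′ on the gene's strand, and capitals mark the longest run.
Rps26, chr10:128626492-128626521 (minus strand): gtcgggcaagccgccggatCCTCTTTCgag
Rpl39, chrX:37085208-37085237 (minus strand): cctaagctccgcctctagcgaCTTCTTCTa
Rpl27a, chr7:109519180-109519209 (plus strand): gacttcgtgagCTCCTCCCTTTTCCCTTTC
Rpl31, chr1:39367836-39367865 (plus strand): CTTCCTCCTCgcctccccgtgacccggaag
Rps18, chr17:33955651-33955680 (minus strand): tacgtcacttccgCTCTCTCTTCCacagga
Rps10, chr17:27635230-27635259 (minus strand): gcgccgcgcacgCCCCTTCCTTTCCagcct
Rpl28, chr7:4792950-4792979 (plus strand): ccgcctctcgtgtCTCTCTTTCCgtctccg
Rpl18, chr7:45718056-45718085 (plus strand): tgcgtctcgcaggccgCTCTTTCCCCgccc
The log2 ratios of male GFP to male tdTomato, in the same order, run from -4.43 for Rps26 to 0.36 for Rpl18. The runs of the 4 low genes hold 8 to 19 letters and those of the 4 high genes 10 to 13. Counted from the annotated start, the marked run of Rpl31 begins at -15 and lies wholly upstream. Those of Rps26 and Rpl39 begin at 5 and 7. The marked runs of Rpl27a and Rpl31 reach an edge of the window, so they may be longer than printed. The Rpl31 window also holds a shorter run of 7 pyrimidines, left in small letters, that crosses the annotated start. The 30 genes with a run had a median log2 ratio of -0.71 in males and 0.33 in females. The 28 matched genes without one had medians of -0.78 and 0.39. A match describes the letters near an annotated start and not the cap used in these cells.

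Library totals ran from 10094167 to 13911111 counts. The male GFP library stood apart in detection: of 3416 genes averaging at least 50 CPM, of which 3412 passed the filter, 7.52% had 3 counts or fewer there. The shares were 2.37% and 0.293% in the GFP and tdTomato libraries of females and 0.615% in tdTomato cells of males. No ribosomal protein gene had 3 counts or fewer in any library. The kit does not mark strand, so reads of an antisense or overlapping gene cannot be told apart. A further 180 rows named as ribosomal protein pseudogenes held counts equal to 4.28% to 5.79% of those on the 78 genes. Reads shared with these copies could be assigned to either, so the level of any gene with such copies is uncertain. In a bulk library, fewer cells of a type and less RNA per cell cannot be told apart. The amplified reads carry no molecular identifiers, so all intervals given cover counting error only.

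Together the 78 genes took 5.54% of all counts in GFP cells (exact 95% binomial interval 5.53% to 5.56%) and 5.20% in tdTomato cells (5.19% to 5.21%) of females. In males they took 2.44% in GFP cells (2.43% to 2.45%) and 4.75% in tdTomato cells (4.74% to 4.76%). The male GFP library was thus the low one, and the others lay close together. After scaling, the pool of females was 1.24-fold higher in GFP than in tdTomato (60050 against 48350 CPM; interval of the fold 1.24 to 1.25). That of males was 1.67-fold lower in GFP (26210 against 43850 CPM; interval 1.67 to 1.68). Each of these is a comparison of 1 library with another, without replicates.

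The makeup of the pool by subunit varied less than its size. Large-subunit genes took 50.8%, 50.1%, 53.4% and 50.8% of it. Small-subunit genes took 42.2%, 43.2%, 40.0% and 42.8%, and stalk genes took 5.20%, 5.07%, 5.42% and 5.13%. The male GFP library had the lowest small-subunit share. Within the pool its counts were also less even: the 10 most abundant members held 34.9% there, against 23.5% to 26.7% elsewhere. The SD of log2 CPM across the 78 genes was 1.40 there and 0.88 to 0.92 elsewhere.

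**Figure D1:**
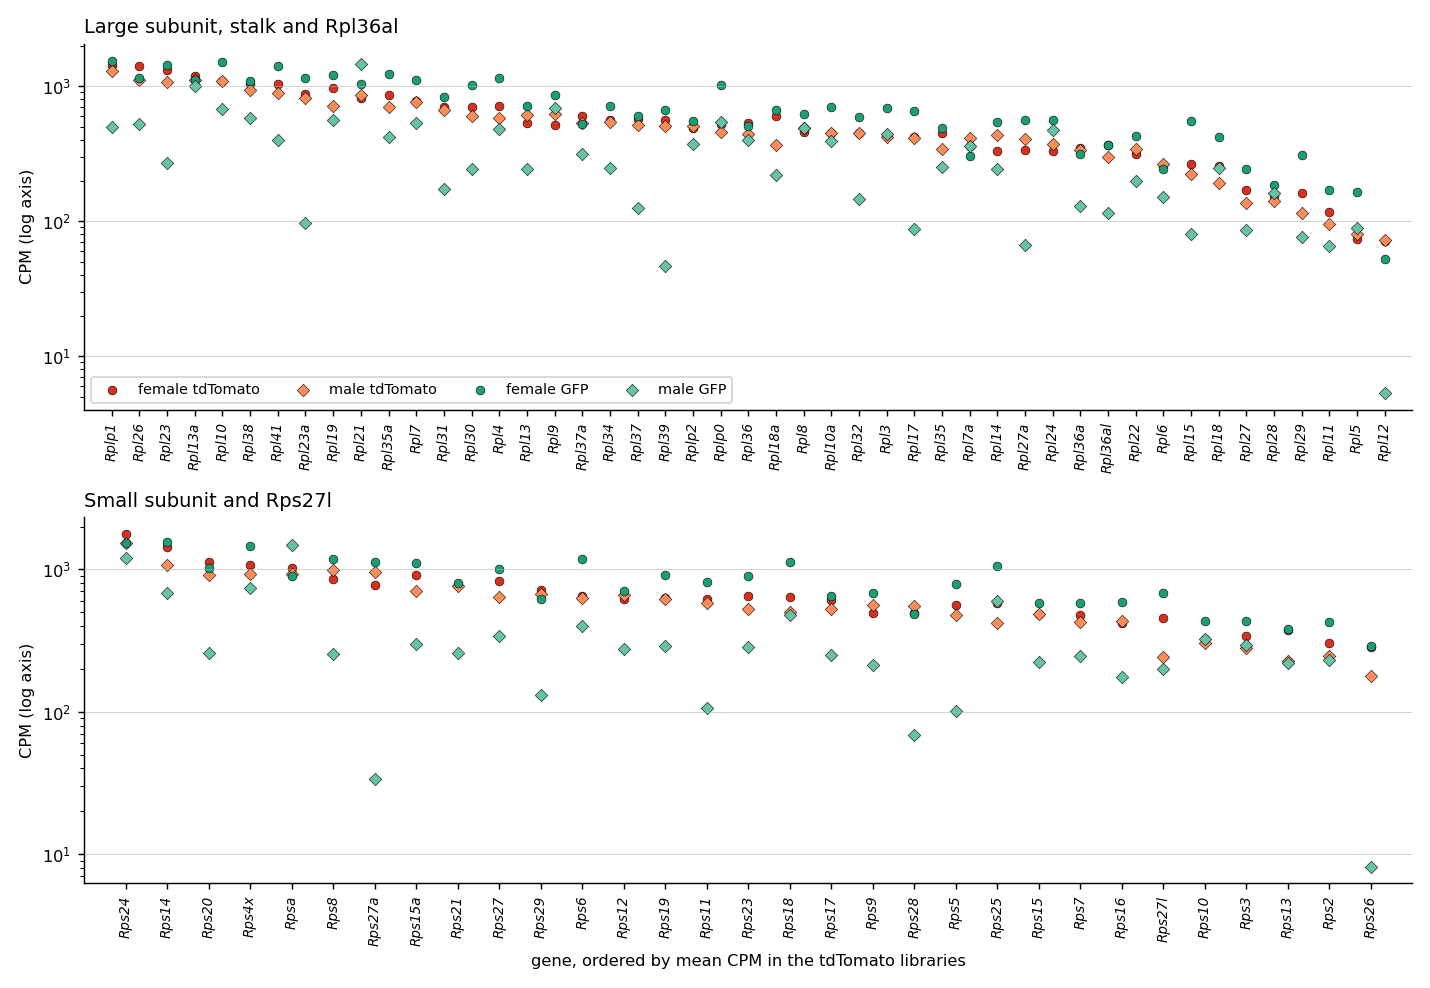
Level of each of the 78 genes in the 4 libraries, in CPM on a log axis, with the genes ordered by their mean in the tdTomato libraries; circles are female, diamonds male, reds tdTomato and greens GFP. The tdTomato symbols nearly coincide, while the pale green diamonds of male GFP are the lowest symbol for 64 genes and are spread over a wider range.

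Median CPM over the 78 genes was 686, 558, 254 and 512. Levels between genes are compared per kilobase of the shortest annotated coding transcript. On that scale Rps24, a small-subunit protein in which mutations cause Diamond-Blackfan anaemia in people, was the highest on average, at 3271, 3788, 2557 and 3295 CPM per kilobase. Rpl12, which sits at the base of the stalk, was the lowest on average, at 42.0, 57.9, 4.29 and 58.0. Without the division by length it was the lowest in each library. Per kilobase Rpl5, at 80.1, 36.0, 43.2 and 39.0, lay below it in the tdTomato libraries. As a description across the 78 genes, which share each library, log2 CPM correlated at r = 0.96 between the tdTomato libraries and 0.93 between the female libraries. Male GFP correlated with the others at 0.60 to 0.65.

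In females, 65 of 78 genes were higher in GFP than in tdTomato and 13 lower, with a median log2 ratio of 0.40 (quartiles 0.10 and 0.53). Over all 15055 genes tested, 55.9% were lower in GFP and the median was -0.27. The median was 0.19 over the 3412 genes averaging at least 50 CPM, of which 1949 were higher in GFP. Over the 817 genes averaging at least 200 CPM it was 0.265, and 539 were higher. The split depended on scaling: with library totals 51 of the 78 were higher in GFP, with upper-quartile scaling 53 and with DESeq2 size factors 69. None of the 78 was at least 2-fold lower in female GFP, against 37.8% of all genes tested and 17.8% of those averaging at least 50 CPM, and 2, Rpl5 and Rpl15, were at least 2-fold higher, against 22.0%. Rpl5, which with Rpl11 carries 5S RNA and can bind Mdm2, had 164, 73.6, 88.4 and 79.8 CPM. Its female GFP library was the high one, 2.23-fold above female tdTomato (interval 2.07 to 2.40). Rpl15, a core large-subunit protein, had 553, 264, 80.6 and 224 CPM, so that it was 2.10-fold higher in female GFP and 2.78-fold lower in males.

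In males the directions were mostly the other way: 65 of 78 genes were lower in GFP and 13 higher, with a median log2 ratio of -0.80 (quartiles -1.39 and -0.22). Of all genes tested 63.2% were lower in male GFP, as were 1519 of the 3412 averaging at least 50 CPM. DESeq2 size factors gave 58 members lower, and library totals 72. The median over all genes tested was -0.998, and over genes averaging at least 50 CPM it was 0.24. At least a 2-fold lower level in male GFP was seen for 34 members, or 43.6%, against 50% of all genes tested and 28.1% of genes averaging at least 50 CPM. The members' share was thus below that of all genes and above that of genes averaging at least 50 CPM. Of the 817 genes averaging at least 200 CPM, as most members do, 152 were at least 2-fold lower, with a median log2 ratio of 0.21. None of the members was at least 2-fold higher in male GFP, against 21.5% of all genes tested. The same library had the lowest summed level of 8 fibroblast markers. Of these 8, 6 were at least 2-fold lower than in male tdTomato and 1 at least 2-fold higher, with a median log2 ratio of -3.31. Against female GFP the markers split, 4 lower and 4 higher. Male GFP also had the lowest detection of abundant genes. The part of these markers and of the lower detection in the members' ratios was not tested.

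**Figure D2:**
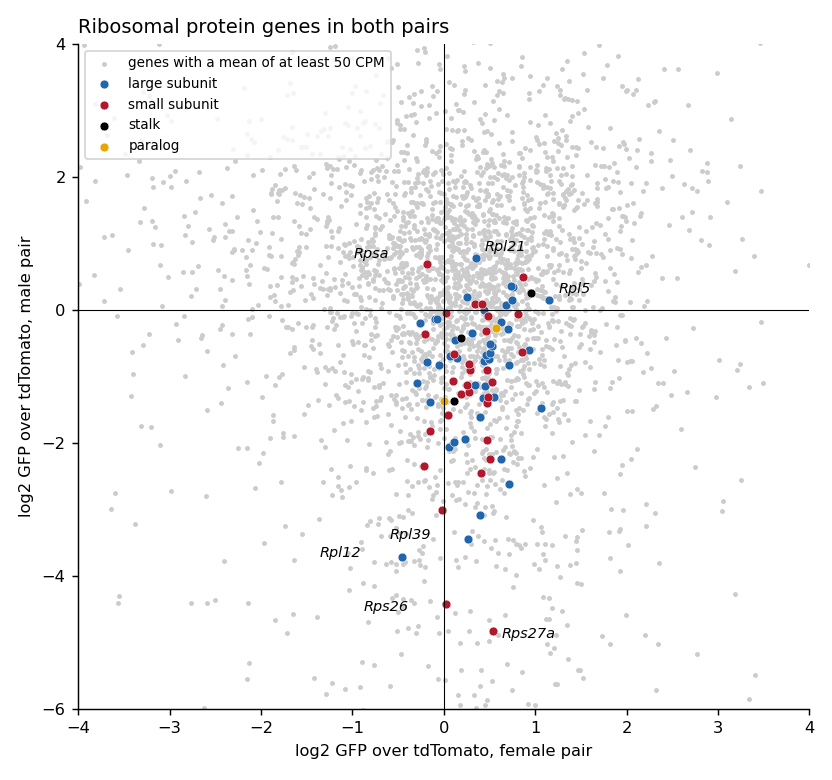
Log2 ratio of GFP to tdTomato in females (horizontal) and in males (vertical), with 1 point for each gene; coloured points are the 78 ribosomal protein genes by role and grey points are genes averaging at least 50 CPM, of which 510 lie outside the axes. Most coloured points fall at the lower right, the part of the plot that holds 53 of the 78 genes.

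Set side by side, 53 of 78 genes (67.9%) were higher in GFP in females and lower in males, against 26.8% of all genes tested. With other scalings this count was 39 to 51. It was 57 with no filter on low counts and 48 among genes averaging at least 50 CPM. Among the 71 members averaging at least 200 CPM it was 38. Lower levels in both GFP libraries were found for 12 genes (background 36.5%) and higher levels in both for 12 (background 17.3%). None was at least 2-fold lower in both, against 22.9%, and none at least 2-fold higher in both, against 5.17%. Log2 ratios ran from -0.46 to 1.15 over the members in females and from -4.83 to 0.78 in males. Across the 78 genes the ratios of the pairs correlated weakly (r = 0.24, Spearman's rho = 0.26).

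No ribosomal protein gene passed the test of GFP against tdTomato over both pairs: edgeR's quasi-likelihood test with the suspension as a block called 0 of 78 at an adjusted p under 0.05, and 0 of all 15055 genes (0.00%). The members' adjusted p-values ran from 0.946 (edgeR, Rps29) to 1. At an unadjusted p under 0.05 the same test held 0 of the 78, while 8.33% of all genes were lower and 0.292% higher. DESeq2 called 0 of the 78 (smallest adjusted p 0.722) and 1157 of all genes, and limma-voom called 0. The edgeR fit rests on 4 libraries with 1 residual degree of freedom, so the values below are descriptions of single libraries. Where a sign is said to turn, it did so under the given number of 7 other scalings, filters and prior counts (6 for genes averaging under 200 CPM).

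Large-subunit genes had median log2 ratios of 0.43 in females and -0.73 in males. In males GFP was at least 2-fold lower for 16 of 43, against 50% of all genes tested and 28.1% of those averaging at least 50 CPM. Rpl39, a very small protein that lines the exit tunnel, had 668, 558, 46.2 and 505 CPM. Its male GFP level lay far below the rest, 10.9-fold under male tdTomato (interval 9.92 to 12.1), and the smaller female difference turned sign under 1 other scaling or filter. Rpl23a, which sits at the tunnel's mouth where nascent chains are received, had 1156, 876, 96.3 and 820 CPM and was 8.52-fold lower in GFP in males (interval 7.96 to 9.12). Rpl27a had 557, 339, 66.4 and 409 CPM, and was 6.15-fold lower in male GFP (interval 5.66 to 6.69) but 1.65-fold higher in female GFP. In all 3 genes male GFP was the lowest library and, as scaled here, female GFP the highest. For Rpl39 female GFP was only 1.20-fold above female tdTomato.

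Rpl12 (ENSMUSG00000038900) was low in both GFP libraries, at 52.1 and 5.32 CPM against 71.9 and 72.0 in female and male tdTomato. It rested on 50 counts in male GFP, where it was 13.5-fold lower than in tdTomato (interval 10.2 to 18.4). In females it was 1.38-fold lower (interval 1.25 to 1.52), and the log2 ratios averaged -2.09 ± 2.30 (SD, n = 2 pairs). Rpl26, which can also bind the message of p53, had 1153, 1412, 521 and 1121 CPM and was lower in GFP by 1.22-fold in females and 2.15-fold in males. Rpl7a had 303, 363, 360 and 414 CPM and was lower in GFP by 1.20-fold and 1.15-fold, although its sign in males turned under 1 other setting. Of these genes lower in both pairs, Rpl12 alone had a male GFP library an order of magnitude below the rest.

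Other large-subunit genes were higher in GFP in both pairs. Rpl21 (ENSMUSG00000041453) had 1037, 813, 1470 and 855 CPM, 1.28-fold higher in female GFP (interval 1.25 to 1.31) and 1.72-fold in males (1.68 to 1.76). It made up 1.73%, 1.68%, 5.61% and 1.95% of the pool in these libraries, so it stood out in male GFP. Rpl24, which reaches across to the small subunit, had 561, 332, 477 and 375 CPM, and was 1.69-fold and 1.27-fold higher in GFP. Rpl18 had 423, 254, 248 and 193 CPM, 1.66-fold and 1.29-fold higher. For both genes the GFP libraries lay above the tdTomato library of the same sex, but the male GFP level of Rpl18 lay below female tdTomato.

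The most abundant large-subunit genes by CPM included Rpl13a and Rpl10. Rpl13a, which is used as a reference gene in many assays, had 1116, 1189, 1012 and 1117 CPM, so its levels lay within a narrow range. Its sign turned under 1 other setting in females and 2 in males. Rpl10, among the last proteins to join the large subunit, had 1506, 1096, 679 and 1088 CPM, with female GFP highest and male GFP lowest.

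Small-subunit genes had medians of 0.32 in females and -1.08 in males. In males GFP was at least 2-fold lower for 16 of 30, a share near the 50% of all genes tested, against 28.1% of those averaging at least 50 CPM. Rps27a (ENSMUSG00000020460), which is made as a fusion with ubiquitin and so supplies both, had 1120, 771, 33.6 and 960 CPM. Its 14145, 11532 and 13345 counts in the other libraries compare with 316 in male GFP. It was 1.45-fold higher in female GFP (interval 1.42 to 1.49) and 28.5-fold lower in males (25.5 to 32.0), the widest gap between pairs of any member. Its share of the pool was 1.87%, 1.60%, 0.128% and 2.19%. Rps26 (ENSMUSG00000025362), which lines the channel where the message leaves, had 288, 284, 8.20 and 180 CPM. It was level in females (1.01-fold, with the sign turning under 3 other settings) and 21.9-fold lower in GFP in males (interval 17.5 to 27.9).

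Rps29, a very small zinc-binding protein of the small subunit's head, had 620, 723, 131 and 669 CPM, 1.17-fold lower in GFP in females (interval 1.13 to 1.20) and 5.09-fold in males (4.80 to 5.41); the pairs' log2 ratios averaged -1.28 ± 1.504 (SD, n = 2 pairs). Rps28, another very small protein, had 484, 491, 69.3 and 557 CPM, close to level in females, and was 8.04-fold lower in males. Rps24 differed less, with 1531, 1773, 1197 and 1542 CPM. It was lower in GFP by 1.16-fold and 1.29-fold, averaging -0.29 ± 0.11 on the log2 scale (SD, n = 2 pairs), so that its pairs lay close together.

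Rps25, a protein used by several viral internal entry sites, was higher in GFP in both pairs, with 1065, 584, 597 and 422 CPM. The folds were 1.82 (interval 1.78 to 1.87) and 1.41 (1.36 to 1.46), and the mean log2 ratio was 0.68 ± 0.26 (SD, n = 2 pairs). The edgeR test gave it an unadjusted p of 0.248 and an adjusted p of 1. Rpsa (ENSMUSG00000032518), the protein also known as the laminin receptor, was the 1 member lower in GFP in females and higher in males, against 19.5% of all genes tested. It had 902, 1023, 1494 and 929 CPM, and was 1.61-fold higher in male GFP than in male tdTomato (interval 1.57 to 1.65). With 5.70% of the male GFP pool, against 1.502% to 2.12% in the other libraries, it had the highest CPM there; per kilobase Rps24 was higher, at 2557 against 934.

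Rps14, which lies at the platform of the small subunit, was with Rps24 and Rpsa among its most abundant genes by CPM and had 1559, 1439, 678 and 1076 CPM. Its direction in females turned under 4 other settings. Rps4x, which is X-linked, had 1464, 1067, 747 and 928 CPM. In both genes male GFP was the lowest library.

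The stalk genes had unlike levels in male GFP. Rplp0, the scaffold of the stalk, had 1021, 528, 545 and 456 CPM, 1.94-fold higher in female GFP and 1.20-fold in males, where the sign turned under 1 other setting. Rplp1 had 1548, 1433, 498 and 1293 CPM and was 2.60-fold lower in male GFP than in male tdTomato (interval 2.51 to 2.68). Rplp2, the partner of Rplp1, had 555, 488, 376 and 503 CPM and was 1.34-fold lower in male GFP. In females the signs of Rplp1 and Rplp2 turned under 4 and 3 other settings.

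Each paralog was set beside its parent gene. Rps27l, a p53 target, had 683, 459, 201 and 242 CPM, 1.49-fold higher in female GFP (interval 1.44 to 1.54) and 1.21-fold lower in males (1.14 to 1.28). Its parent Rps27 had 1012, 829, 340 and 638 CPM and was 1.88-fold lower in male GFP. Rpl36al, an intronless relative of the X-linked Rpl36a, had 369, 368, 115 and 299 CPM, and Rpl36a had 317, 352, 129 and 338. Their male differences were alike in size, 2.60-fold (interval 2.43 to 2.78) and 2.62-fold (2.46 to 2.80) lower in GFP. The female ratio of Rpl36al turned sign under 4 other settings. Reads from near-identical stretches of a paralog and its parent could have been divided between them.

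The sexes were compared within each colour. In GFP cells 75 of 78 genes were lower in the male than in the female library, against 52.0% of all genes tested. The members' median log2 ratio was -1.38 (quartiles -1.96 and -0.85). At least a 2-fold lower level was found for 52 of 78 (66.7%), against 40.4% of all genes tested and 33.3% of genes averaging at least 50 CPM, and none was 2-fold higher (background 27.9%). The 3 genes not lower in male GFP were Rpsa, Rpl21 and Rpl7a. In tdTomato cells the median was -0.14 (quartiles -0.29 and -0.001), with 58 of 78 lower in the male, against 50.9% of all genes tested. Of the 78, 0 were 2-fold apart in either direction, against 21.6% lower and 20.6% higher over all genes. Whether the sex difference itself differed between the colours was not tested, as each combination is 1 library.

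The sum over the members was 2.29-fold higher in female than in male GFP (interval 2.28 to 2.30) and 1.10-fold higher in female than in male tdTomato (1.10 to 1.11). Of 78 members, edgeR's test of male against female called 0 at an adjusted p under 0.05 (0.00% of all genes), and the members' adjusted p-values were all 1. No member had an unadjusted p under 0.05 (lowest 0.105, Rpl23, by edgeR), against 1.22% of all genes lower and 0.518% higher in males. DESeq2 called 0 members (smallest adjusted p 0.56) and 140 of all genes.

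**Figure D3:**
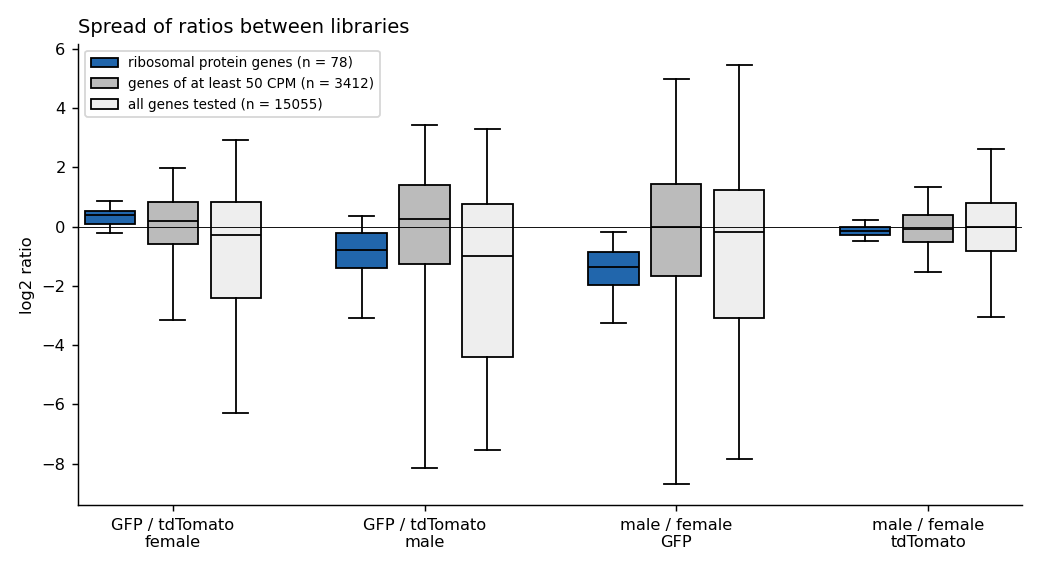
Log2 ratios between libraries for the 78 ribosomal protein genes (blue), genes averaging at least 50 CPM (grey) and all genes tested (pale); boxes give the quartiles, the inner line the median, and whiskers leave the same small share of genes beyond each end. The blue boxes are narrower than the others in all 4 comparisons, and lie lowest for male over female GFP, with a median of -1.38.

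The ratios of the members were less spread than those of other genes. The SD of their log2 ratios was 0.34 in females, 1.12 in males, 1.07 between the GFP libraries and 0.25 between the tdTomato libraries. Over genes averaging at least 50 CPM the SDs were 1.76, 3.20, 3.73 and 1.07, and over the 817 averaging at least 200 CPM, as 71 of the members do, they were 0.84, 1.62, 1.90 and 0.65. Transcript length was at most weakly related to the male ratio across the members (Spearman's rho = 0.13, 78 genes). The 39 genes with transcripts of at most 613 bases had a male median of -0.91 and the 39 longer ones -0.68, with 19 and 15 at least 2-fold lower in GFP.

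Other genes of translation were read from lists, and edgeR called 0 members of each. Of 5 ribosomal proteins that the rule leaves out, 2 (40%) had male GFP levels at least 2-fold under male tdTomato, against 50% of all genes tested. Their medians were 0.17 in females and -0.95 in males. Among them Rps3a1 had 1172, 959, 328 and 960 CPM, while Fau, which encodes a small-subunit protein fused to a ubiquitin-like one, had 366, 325, 483 and 300. The male GFP library was thus low for Rps3a1 and high for Fau.

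The 9 other TOP messages had medians close in sign and order to those of the ribosomal proteins, at 0.51 in females and -0.42 in males, and all 9 were lower in male than in female GFP, 5 of them at least 2-fold, against 52.0% of all genes lower and 40.4% at least 2-fold lower. Tpt1, a growth-related TOP message, had 3411, 2396, 907 and 2309 CPM. Rack1, a scaffold bound to the small subunit, had 1070, 545, 390 and 524. Gas5, a non-coding host of small nucleolar RNAs, had 2757, 1309, 1314 and 905 and was higher in GFP in both pairs. For the 6 elongation factors tested the medians were 0.74 and -0.27. Eef1a1, which brings aminoacyl-tRNA to the ribosome, had 3003, 2248, 417 and 1861 CPM, with male GFP far below the rest.

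The 30 initiation factors had a median of -0.07 in females and 0.57 in males. In males 9 (30.0%) were at least 2-fold lower in GFP and 10 (33.3%) at least 2-fold higher, against 50% and 21.5% of all genes. Eif4a2, a helicase that opens the leader of the message, had 663, 744, 1190 and 550 CPM and was highest in male GFP. Among 27 ribosome assembly genes, 14 (51.9%) were at least 2-fold lower and 7 (25.9%) at least 2-fold higher in male GFP, near the 50% and 21.5% of all genes, with Ncl, the nucleolar protein nucleolin, at 337, 230, 675 and 271 CPM. Of 77 mitochondrial ribosomal protein genes tested, 43 (55.8%) were at least 2-fold lower in male GFP, against 50% of all genes. Of all 78 in the list, tested or not, 27 were at 0 in male GFP and 7 in female GFP. In the tdTomato libraries of females and males 1 and 2 were at 0. Of all genes tested 23.4% were at 0 in male GFP and 12.8% in female GFP. Of the 13 control genes, 7 (53.8%) were at least 2-fold lower in male GFP, a share near the background. Mdm2, the p53 ligase that free Rpl5 and Rpl11 inhibit, had 204, 51.9, 208 and 36.9 CPM and was high in both GFP libraries. Rps6kb1, the kinase that phosphorylates Rps6, was at 0 counts in male GFP and at 58.2 to 90.8 CPM elsewhere.

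**Figure D4:**
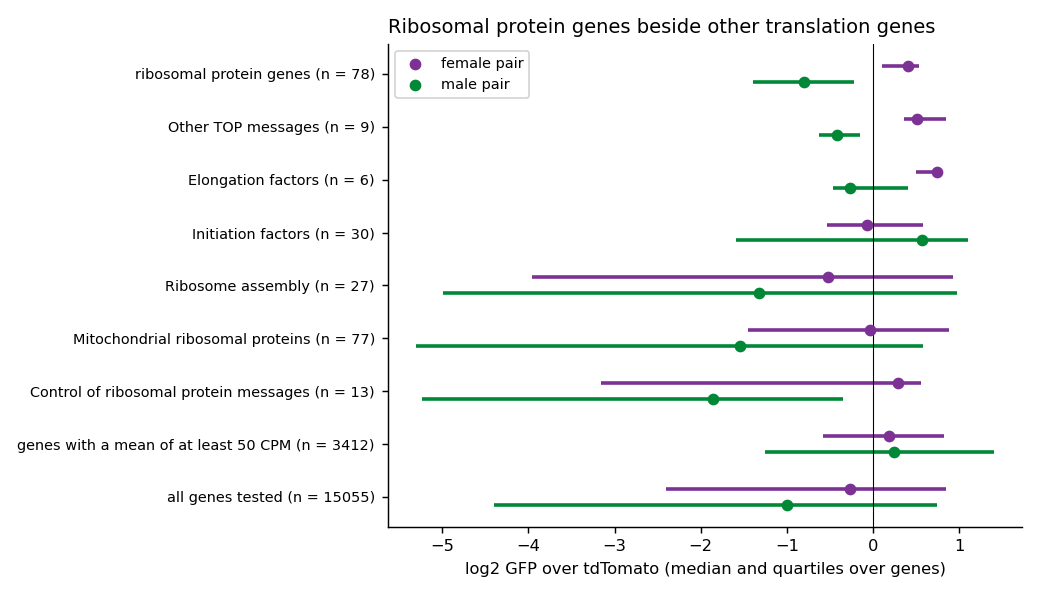
Median (point) and quartiles (line) of the log2 ratio of GFP to tdTomato over the genes of each list, in females (purple) and in males (green). The ribosomal proteins, other TOP messages, elongation factors and control genes have a positive female and a negative male median, while genes averaging at least 50 CPM have positive medians in both pairs, 0.19 and 0.24.

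Markers of other cells were read beside these levels. Summed over 8 fibroblast markers, CPM was 4152, 3702, 1528 and 4671 (1, 0, 1 and 0 at 0), so the sum was lowest in male GFP, with Dcn at 2134, 1920, 153 and 2236 and Gsn at 823, 758, 310 and 1175. The third of the most abundant, Mfap5, was highest in male GFP, at 377, 298, 955 and 378, and 4 of the 8 were lower and 4 higher in male than in female GFP. The 8 endothelial markers summed to 15.8, 385, 12.7 and 237 CPM, with 1, 0, 6 and 0 of them at 0. The 7 macrophage markers in the table summed to 6.57, 20.1, 0.532 and 150 (5, 1, 4 and 0 at 0). Schwann cell markers summed to 127, 8.23, 109 and 11.7, and melanocyte markers to 212, 73.2, 134 and 58.6, both higher in GFP. Erythroid markers were near 0. The part of these cells, and of the lower detection in male GFP, in the ribosomal protein levels was not tested.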

How the data were processed

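Polyadenylated RNA was copied into full-length cDNA by template switching, amplified by PCR and cut with Tn5, per the labels' protocols; the kit does not mark strand. Fastp, HISAT2 and StringTie and the build GRCm39 are named in the submitters' processing notes, and the counting program was not named in the labels (not given in the sources used here). As deposited by the authors, the table holds estimated counts per gene, not normalized, and 59.4% to 69.1% of its values per library are whole (tolerance 1e-06). Values were rounded. Symbols, biotypes and transcript lengths came from GENCODE vM21 and a table of gene names, by Ensembl identifier, for 76.5% of genes; no coordinates were taken from it.

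Counts were scaled by TMM and kept by filterByExpr (minimum count 10), leaving 15055 genes. edgeR 4.0.16 (R 4.3.3) fitted colour with the suspension as a block, which the design gives since both colours of a sex were sorted from 1 suspension; limma 3.58.1 (voom) and DESeq2 1.42.0 were alternatives. P-values were adjusted by Benjamini-Hochberg over all genes, and measure only the spread between these libraries, which may be technical. Log2 ratios used a prior count of 2 and folds none; intervals are exact 95% binomial ones. The script was tested on counts simulated with a much lower dispersion (spread between libraries) than the 1.47 fitted here. That test therefore does not measure recovery or error in these data.

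The members and lists were chosen with earlier results of these data known. Members were named by rule: the 3 most abundant of each role, 5 with the largest ratio of shared sign in each direction, 5 whose pairs differed most, and paralogs with parents; genes named from the lists are among their 3 most abundant. Rpl5, Rpl15, Rps28, Rps4x and the genes with printed windows were named after their values were seen.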

Additional observations from a re-analysis of the deposited data

Results flagged for a closer look

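The ribosomal protein genes differed in direction between the pairs: the median log2 ratio of GFP to tdTomato was 0.40 in females and -0.80 in males, and 53 members were higher in GFP in the first and lower in the second. Each pair is 1 library against 1 library, so the difference between the pairs was not tested. Among the members named by rule, the male log2 ratio opposite in sign to the female one was -4.83 for Rps27a, -4.43 for Rps26, -3.45 for Rpl39, -3.09 for Rpl23a, -2.62 for Rpl27a, -1.38 for Rpl36al, -1.38 for Rplp1, -0.91 for Rps27, -0.68 for Rpl10, -0.67 for Rps14, -0.42 for Rplp2, -0.27 for Rps27l and 0.69 for Rpsa. Of these, Rps26, Rpl39, Rpl36al, Rplp1, Rps14 and Rplp2 had a female ratio whose sign turned under at least 1 other setting.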

How the results depend on the processing

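The median log2 ratios of the members stayed positive in the female pair and negative in the male pair under every setting run. They were 0.53 and -0.56 with DESeq2 size factors, 0.18 and -1.01 with library totals, 0.23 and -0.61 with upper-quartile scaling, 0.43 and -0.89 with no filter on low counts, 0.21 and -1.13 among genes averaging at least 50 CPM, and 0.14 and -1.05 among genes averaging at least 200 CPM, a setting chosen after seeing the data. The scaling shifts all genes too: their median in the male pair was -0.998 as reported, -0.78 with DESeq2 size factors and -1.20 with library totals. The number of members at least 2-fold lower in male GFP ran from 27 to 45 over the settings, and 43 of the 71 members averaging at least 200 CPM were higher in female GFP. DESeq2 called 1157 genes for colour and 140 for sex; edgeR called 2 genes for sex with no filter and 1 among those averaging at least 200 CPM, and no member was called by either. Without the replicate block that pairs the colours of a suspension, edgeR called 0 genes, and leaving out 1 library at a time called 0 to 0, with the lone library assumed to vary like the others. Without mitochondrial genes and Malat1 in the total, the members' share of counts was 6.17% and 5.78% in GFP and tdTomato cells of females and 2.75% and 5.29% in those of males; with the ribosomal proteins outside the rule added it was 5.75%, 5.41%, 2.54% and 4.94%. The cause of these shifts was not tested. The edgeR fit has 1 library per group and 1 residual degree of freedom, and the members had at least 50 counts in each library.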
